A study of Gallus gallus with 18 samples.

Results

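The cell cycle and DNA replication genes of the chicken gastrula are described here, from the cyclins and cyclin-dependent kinases to the replication licensing proteins, the mitotic kinases and the spindle checkpoint. Members were chosen by name alone. A probeset belonged if its annotated gene symbol began with CCNA, CCNB, CCND, CCNE, CCNG, CCNH, CDK, MCM, ORC (the last 3 followed by a number), GINS, E2F, AURK, PLK or BUB, or was CDC6, CDC7, CDC20, CDC25A, CDC25B, CDC45, PCNA or MKI67. This rule found 123 of the 38535 probesets on the array, which read 69 genes. It also took in 12 probesets of 6 genes that match by name only, such as CDK5RAP2 and MCM3AP. Their symbols begin like that of a cyclin, kinase or MCM gene, but they are different genes. No probeset was annotated with CDC6, CDC25B, AURKA, CCNB2, CDK2, CDK4, MCM4 or MCM7, and these genes were not analysed here.

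Cyclins are regulatory subunits that switch on the cyclin-dependent kinases (CDKs), and many, though not all, rise and fall through the cell cycle. D and E cyclins drive entry into DNA synthesis, A and B cyclins drive DNA synthesis and mitosis, and the CDKs themselves must be phosphorylated by a CDK-activating kinase made of CDK7, cyclin H and MNAT1. Before DNA synthesis the origin recognition complex and CDC6 load the MCM helicase on origins, which then fire with the help of CDC7, CDC45 and GINS. Cells of the early avian embryo divide rapidly. In birds males carry a pair of Z chromosomes and females have a Z and a W, so that genes on Z differ in copy number between the sexes.

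The study asked which genes differ between male and female embryos before any gonad has formed. Each of 18 Affymetrix chicken arrays read 1 White Leghorn embryo at Hamburger and Hamilton stage 4 (HH4), after 1 day of incubation, with 9 males and 9 females and no technical repeat. All embryos were held in culture for 3 h, and a 400 by 400 micron square with the 3 germ layers was cut from the primitive streak between 70% and 90% of its length, the streak being the furrow through which cells leave the surface layer at gastrulation. By the methods, males and females shared strain, stage range and handling, but the labels give no stage for single embryos. Handling differed in some embryos that the methods describe as electroporated with plasmids and that the labels do not name. Sex had been assigned by the authors from the W-linked gene HINTW, so the difference of its brighter probeset (29332 ± 2545 in females and 18.2 ± 22.1 in males) was fixed by that choice. The tissue is a mixture, and fewer cells of a type and less RNA per cell cannot be told apart.

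Values were MAS5 signals, a measure of brightness that the authors scaled to a trimmed mean of 500 on every array, and between 13776 and 15190 probesets of an embryo reached a signal of 130, taken here as the detection level. A probeset was tested if at least 9 of 18 embryos reached that level, which kept 14505 probesets. Among markers of the labelled tissue, TBXT, MSGN1, WNT8A, CHRD and SNAI2 of the primitive streak and mesoderm were over the level in all 18 embryos, as were EPCAM, SOX3, OTX2 and CDH1 of the epiblast and SOX17 and FOXA2 of the endoderm. NODAL, GATA4 and the germ cell gene DAZL were over the level in none. The other streak genes EOMES, FGF8, TBX6, MIXL1, FGF4 and GSC were over it in 16, 15, 11, 7, 6 and 4 embryos. SOX2 of the epiblast was over it in 8, GATA6 of the endoderm in 9 and the germ cell gene DDX4 in 9. The blood and endothelial genes LMO2, TAL1 and KDR were over it in 12, 9 and 15 embryos. Some markers varied widely among embryos, such as CHRD (302 to 5019) and OTX2 (318 to 4764). On the first principal component (17.4% of the variance) female 9 and males 8, 5 and 6 had the lowest scores (-42.1, -38.1, -33.5 and -22.6). The next lowest was male 9 at -12.2. The highest score was 25.6 (female 5), so male 6 was no farther from 0 than some embryos at the other end. Results were also computed without the 4 lowest embryos, called below those that stood apart. Leaving them out removes more males than females. Signals below are means ± SD (n = 9 for each sex), the M:F ratio divides the male by the female mean, differences are log2 male minus female with the standard error (SE), and a call means an adjusted p under 0.05 by limma with Benjamini-Hochberg adjustment over all 14505 probesets.

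Of the 123 member probesets, 86 passed the filter and were tested, and these read 64 of the 69 genes. The members under the filter were 37 probesets, and 5 genes had no other probeset. These were CCNA1, the cyclin A known from the mammalian germ line, CDK3, CDK15, CDK18 and E2F3. CCNA1 reached the level in 5 males and 2 females, and the other 4 genes in no embryo. By contrast, 72 of the 86 tested member probesets were over the level in all 18 embryos.

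Males had higher signals of 3 member probesets and females of none. The share of all tested probesets called was 2.48% male-higher and 0.283% female-higher, and the 3 member calls all lay on Z. They read CDK7 and, with 2 probesets, CCNH. Of the 4 tested member probesets on Z, 3 were called, beside 56.9% of the 501 tested Z-linked probesets, a share that 4 probesets cannot set apart from that of Z-linked probesets in general. None of the 82 tested autosomal members was called in either direction by limma or by a SAM-type test, beside 0.0635% (male-higher) and 0.118% (female-higher) of 11024 autosomal probesets, and 4 of the 82 had an unadjusted p under 0.05, beside 5.15% of the autosomal probesets. The count of 3 male-higher and 0 female-higher probesets was also found without the 4 embryos that stood apart.

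CDK7, the catalytic subunit of the CDK-activating kinase, which also phosphorylates RNA polymerase II as part of the transcription factor TFIIH, had the largest difference of any member called. Its signal in males ran from 420 to 641 with a median of 589. In females it ran from 211 to 364 with a median of 282. Every male was above every female, a separation seen in 2 of the 86 tested members, in 1.17% of all tested probesets and in 28.9% of those on Z. The means were 549 ± 86.7 and 285 ± 52.1, an M:F ratio of 1.92. The difference was 0.95 (SE 0.12, 95% interval 0.70 to 1.20, limma adjusted p = 2.94e-05).

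CCNH encodes cyclin H, the partner of CDK7. Its brighter probeset had signals of 1650 to 2509 in males (median 2067) and of 863 to 1571 in females (median 1340), again with no overlap. The M:F ratio was 1.65 (2122 ± 301 against 1282 ± 221) and the difference 0.73 (SE 0.11, limma adjusted p = 3.47e-04). The dimmer CCNH probeset gave a similar value. Males ran from 298 to 459 (median 344) and females from 149 to 315 (median 199), and 7 of 9 males were above every female. Its M:F ratio was 1.70 and its difference 0.78 (SE 0.13, limma adjusted p = 5.58e-04).

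PLK2, a polo-like kinase known for roles in centriole duplication and the stress response, is the third Z-linked gene among the members and was not called. Its 1 tested probeset was dim, over the detection level in 5 of 9 males and 8 of 9 females. Signals ran from 65.9 to 278 in males (median 147) and from 119 to 306 in females (median 196), so the sexes overlapped almost entirely. The difference was -0.39 (SE 0.25, 95% interval -0.92 to 0.14, limma adjusted p = 0.773). The other 2 PLK2 probesets were below the level in all 18 embryos.

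**Figure D1:**
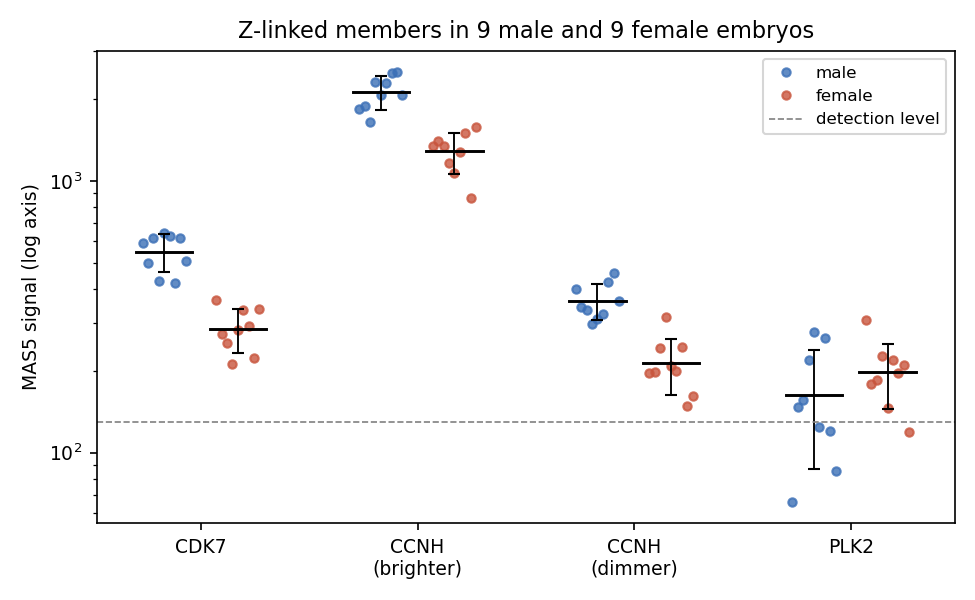
MAS5 signal (log axis) of the 4 tested Z-linked member probesets, with 1 point for each of 9 male and 9 female embryos, the mean as a horizontal line and the SD as error bars. The points of CDK7 and of the brighter CCNH probeset do not overlap between the sexes, whereas those of PLK2 lie around the detection level of 130 in both.

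The 3 genes lay at different places among Z-linked probesets, whose median difference was 0.59. A lower difference than that of CDK7 was found in 459 of 501 Z-linked probesets (91.6%). The 2 CCNH probesets exceeded 68.7% and 75.2% of them, while only 2 Z-linked probesets (0.399%) lay below PLK2. Within each embryo the log2 signal of a gene was then set against the median of the 497 other Z-linked probesets. These contrasts, and that of CDK7 with CCNH, were added after the values had been seen, and p-values were adjusted over 6 contrasts. Measured against that median, the log2 signal of CDK7 was 0.31 higher in males than in females, and that of CCNH 0.10 higher (exact permutation p = 0.378). The value of PLK2 was -1.03, most of which is the shift of the Z median itself. The values of CDK7 and PLK2 are given with no test, since their high and low ranks had already been seen. PLK2 signals also lie close to the detection level.

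The CDK-activating kinase holds Z-linked and autosomal subunits, since MNAT1, which assembles CDK7 with cyclin H, is on chromosome 5. The signal of MNAT1 ran from 379 to 757 in males (median 637) and from 505 to 805 in females (median 571). The means were 608 ± 108 and 611 ± 95.9, a difference of -0.02 (SE 0.12, limma adjusted p = 0.993). The log2 ratio of CDK7 to MNAT1 was 0.96 higher in males (exact permutation p = 3.7e-04, adjusted 0.0011), with 7 of 9 males above every female. That of CCNH to MNAT1 was 0.75 higher (exact permutation p = 2.06e-04, adjusted 0.0011), also with 7 of 9 males above every female. Both ratios restate the calls of CDK7 and CCNH, since MNAT1 differed little in the same embryos, and are no separate support. The ratio of CDK7 to CCNH, both on Z, differed by 0.21 (exact permutation p = 0.161, adjusted 0.193). Without male 7 this last difference was 0.29 (exact permutation p = 0.0449, not adjusted over the 6 contrasts). For splits of 9 against 9 the smallest p is 4.11e-05. A list of MNAT1 and TFIIH genes held 8, of which 5 had tested probesets, while ERCC2, GTF2H2 and GTF2H4 were not read. None of the 6 tested probesets of these 5 genes, all autosomal, was called by limma. Of them 0 had an unadjusted p under 0.05 (beside 5.15% of autosomal probesets), and their differences lay between -0.13 and 0.20.

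Among the G1 and S phase cyclins the values farthest from 0 were those of CCND2, which encodes cyclin D2 and lies on chromosome 1. Its brighter probeset had signals of 3131 to 4102 in males (median 3300) and of 3457 to 5600 in females (median 4097). A dimmer probeset ran from 2698 to 3455 in males (median 3142) and from 3186 to 5439 in females (median 3556). With this dimmer probeset 7 of 9 females were above every male, and with the brighter one 4 of 9. The sexes overlapped in both probesets. The F:M ratios were 1.24 and 1.32 and the differences -0.31 (SE 0.08) and -0.38 (SE 0.11). They missed the threshold, with limma adjusted p = 0.0587 and 0.0671. Another, much dimmer CCND2 probeset (319 ± 46.8 in males and 344 ± 59.8 in females) had a difference of -0.10 (limma adjusted p = 0.894). Here 2 of 9 females were above every male. All 3 differences were below 0, and whether CCND2 was called depended on the processing. The brighter probeset was called under a stricter filter (adjusted p = 0.0398) and with 1 probeset for each gene (0.0485), and without male 7 (0.0263) or female 5 (0.0251) by limma. The dimmer one was called under the stricter filter (0.0499) and without female 5 (0.0428) or female 7 (0.0343). Without the 4 embryos that stood apart neither was called. The same held with quantile normalization (lowest limma adjusted p = 0.0775), a block for the replicate number (0.193) and no filter (0.323). Without female 1 the difference of the brighter probeset was -0.25.

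Cyclin D1 and cyclin D3 gave no such values. CCND1, which many growth factor pathways induce, had signals of 5262 to 8370 in males and of 3163 to 8960 in females with its brighter probeset, a difference of 0.07 (SE 0.16, limma adjusted p = 0.967) that was -0.06 without female 9. CCND3 had 1732 ± 170 in males and 1787 ± 129 in females. The E cyclins, which bind CDK2 at the start of S phase, were read by 4 tested probesets with differences of -0.25 to 0.01. The value of -0.25 came from 1 CCNE2 probeset (2289 ± 442 in males and 2704 ± 346 in females, limma adjusted p = 0.466), while the second CCNE2 probeset gave -0.02. CCNA2, the somatic cyclin A, had a difference of 0.09 (1484 ± 125 against 1398 ± 131).

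The B cyclins, which drive mitosis with CDK1, were bright, and CCNB1 varied little among embryos. CCNB1 ran from 15675 to 18262 in males and from 14634 to 18540 in females, a difference of 0.02 (SE 0.06, limma adjusted p = 0.974). CCNB3 had 3810 ± 624 in males and 3512 ± 439 in females (difference 0.11, limma adjusted p = 0.873). CDK1 itself, the kinase of mitosis, ran from 16516 to 19513 in males and from 15753 to 19193 in females. Its difference was 0.00 (SE 0.06, 95% interval -0.12 to 0.13).

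CCNG2, an atypical cyclin linked in mammalian cells to cell cycle arrest, was the only one of 20 genes with several tested probesets whose differences lay over 0.5 apart. Its dimmer probeset ran from 1205 to 8402 in males (median 2839) and from 1786 to 13682 in females (median 6859). Its brighter probeset ran from 5200 to 10460 in males (median 7513) and from 4862 to 13045 in females (median 7917). The first gave a difference of -1.10 (SE 0.43, limma adjusted p = 0.351) and the second of -0.15 (SE 0.16, limma adjusted p = 0.894), a gap of 0.95. The dimmer probeset varied widely within both sexes, with a residual SD of 0.98 on the log2 scale that 97.9% of tested probesets did not reach. Its males spread over much of the range of the females. Without the 4 embryos that stood apart it gave -1.60 (limma adjusted p = 0.0944), still with no call. CCNG1, a related gene that p53 induces in mammals, had differences of -0.13 and -0.03 with its 2 probesets.

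**Figure D2:**
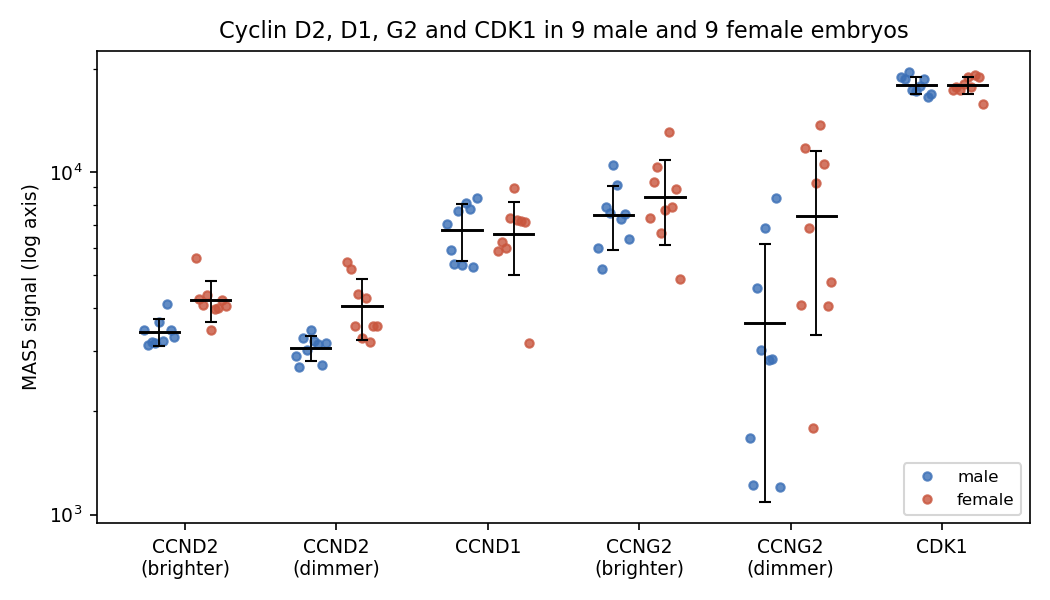
MAS5 signal (log axis) of the cyclin D2, D1 and G2 probesets and CDK1, with 1 point for each of 9 male and 9 female embryos, the mean as a line and the SD as error bars. The CDK1 points lie within a narrow band in both sexes, those of the dimmer CCNG2 probeset spread from 1205 to 13682, and female 9 lies lowest for CCND1 at 3163.

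The remaining CDKs lay near 0. Of the 15 tested CDK probesets of 12 genes, 8 had differences above 0 and 7 below, and CDK7 was the 1 call. CDK8, the kinase of the Mediator complex, ran from 2055 to 3200 in males (median 2449) and from 2295 to 3228 in females (median 2828), a difference of -0.20 (SE 0.10, limma adjusted p = 0.589). Its second probeset gave -0.10. CDK6, a partner of the D cyclins, was dim, over the level in 5 males and 5 females with 1 probeset (difference -0.15, SE 0.27) and in 7 males and 8 females with the second (0.07, SE 0.18). CDK9, which acts on transcript elongation, had a difference of 0.00 with its brighter probeset (1219 ± 171 against 1217 ± 170). CDC25A, a phosphatase that activates CDKs, ran from 554 to 770 in males (median 681) and from 471 to 708 in females (median 580), with a difference of 0.18 (SE 0.10, limma adjusted p = 0.676).

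The E2F factors, which switch on S phase genes, were read by 9 tested probesets of 6 genes with differences of -0.27 to 0.15 and no call. The value of -0.27 was that of E2F1, an activator of S phase genes. It ran from 579 to 1184 in males (median 927) and from 834 to 1204 in females (median 1011), with limma adjusted p = 0.648. Without the 4 embryos that stood apart the E2F1 difference was -0.46 (limma adjusted p = 0.128). E2F4, a repressor in resting mammalian cells, had a difference of 0.06. E2F7 and E2F8, atypical repressors of the family, had differences of -0.01 and 0.01 with their brighter probesets. The dim E2F5 probeset at the upper end (0.15, SE 0.19) reached the level in 5 males and 5 females.

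The helicase proteins showed a common sign without a call. All 8 tested probesets of MCM2, MCM3, MCM5, MCM6, MCM8 and MCM9 had differences below 0, from -0.26 to -0.10 with a median of -0.17, while 6043 of 11024 autosomal probesets were below 0 with a median of -0.02. This group is not one of the roles used here, and its shared sign is a description only. The origin licensing role joins MCM2, MCM3, MCM5 and MCM6 with the ORC subunits. It had 13 tested probesets, 6 with differences above 0 and 7 below. MCM10, described below, was left out of the MCM group and had differences of 0.38 and 0.02. MCM2, a core subunit, ran from 6135 to 9160 in males (median 7603) and from 7042 to 9036 in females (median 8689), a difference of -0.10 (SE 0.09, limma adjusted p = 0.860). MCM3 had 782 ± 121 in males and 903 ± 143 in females, a difference of -0.21 (SE 0.11, limma adjusted p = 0.661). MCM6 had 3 probesets with differences of -0.17, -0.22 and -0.16. MCM8, which acts with MCM9 in recombination repair in mammals, had the value farthest from 0. It ran from 835 to 1289 in males (median 981) and from 735 to 1705 in females (median 1304), with a difference of -0.26 (SE 0.14, limma adjusted p = 0.694). MCM9 had a difference of -0.17 (SE 0.18, limma adjusted p = 0.892), but its median was higher in males (990) than in females (900). The sexes overlapped in every one of these probesets. Every MCM value of this group (8 probesets, or 6 with 1 probeset for each gene) was below 0 in all 30 settings of the processing tried, leaving out each embryo included, and the lowest adjusted p in any limma setting was 0.217. The 8 probesets share their embryos, as the settings do, and 3 of the 8 read MCM6. Agreement of sign among probesets or among settings is therefore no separate support for a difference.

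The origin recognition complex, on which the MCM helicase is loaded, had values on the other side of 0. The brightest probesets of ORC1 to ORC6 had differences of 0.03, 0.06, 0.19, 0.06, 0.15 and 0.06. None was called, and the sexes overlapped for each. A second, dimmer ORC6 probeset gave -0.23 (SE 0.16, limma adjusted p = 0.803). The 6 signs of the brightest probesets were the same in 27 of the 30 settings. Over all ORC probesets they were the same in 1 setting, that with 1 probeset for each gene. Since the probesets and the settings share their embryos, these signs and counts are no separate support. The largest value was that of ORC3, at 1556 ± 246 in males and 1368 ± 263 in females (SE 0.12, limma adjusted p = 0.759).

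Genes of origin firing and of the replication fork, MCM8 and MCM9 among them, gave 9 tested probesets with no call. CDC45, which joins the MCM helicase when an origin fires, was among the most even of all members, at 9728 ± 573 in males and 9986 ± 772 in females (difference -0.04, SE 0.06). PCNA, the sliding clamp of DNA polymerase, ran from 6910 to 9051 in males and from 6798 to 10275 in females, a difference of -0.05 (SE 0.09, limma adjusted p = 0.940). CDC7, the kinase that triggers firing, had a difference of 0.15 (limma adjusted p = 0.785). The GINS subunits GINS1 and GINS3 gave 0.19 (SE 0.22) and -0.02 (SE 0.09). MCM10, a firing factor unrelated to the helicase core, was the least well measured. Its dimmer probeset reached the level in 6 males and 4 females, ran from 76.8 to 329 in males and from 71.6 to 232 in females, and gave 0.38 (SE 0.29, limma adjusted p = 0.834), while its second probeset gave 0.02.

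Of the mitotic kinases AURKB, PLK1, PLK4 and both tested probesets of PLK3 were over the detection level in all 18 embryos. AURKB, the kinase of the chromosomal passenger complex, had 14040 ± 1407 in males and 13501 ± 1312 in females (difference 0.06). PLK1, the main polo-like kinase of mitosis, ran from 6295 to 12396 in males and from 6616 to 9635 in females (difference 0.09, SE 0.11, limma adjusted p = 0.906). PLK4, which starts centriole duplication, had 1954 ± 263 and 2271 ± 459, a difference of -0.20 (SE 0.11, limma adjusted p = 0.693). PLK3, a stress-responsive relative, was dimmer (360 ± 44.2 and 364 ± 67.0 with its brighter probeset), with differences of -0.01 and -0.05. None of these reached the threshold.

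Spindle checkpoint genes, which hold anaphase until every chromosome is attached, had 5 of 5 tested probesets below 0 with a median of -0.03. These probesets share their embryos, and the shared sign held in only 20 of the 30 settings. Under quantile normalization and without male 8 or male 9, 2 of the 5 turned above 0. Without the 4 embryos that stood apart, and without male 6 or female 1, 6, 7 or 8, 1 of the 5 did. BUB1 had 5819 ± 490 in males and 5846 ± 454 in females (difference -0.01) with its brighter probeset, and -0.12 with its dimmer one. BUB1B had -0.15 (SE 0.08, limma adjusted p = 0.681). BUB3 and CDC20, the activator of the anaphase-promoting complex, had -0.03 and -0.02. MKI67, which encodes the Ki-67 antigen of dividing cells, ran from 8456 to 12691 in males (median 10188) and from 8855 to 11967 in females (median 10093). Its difference was 0.00 (SE 0.09, 95% interval -0.19 to 0.19).

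Matches by name only gave 8 tested probesets with differences of -0.27 to 0.02 and no call. The lowest was that of the dimmer probeset of CDK5RAP2, a centrosome protein (167 ± 41.0 in males and 201 ± 42.8 in females, limma adjusted p = 0.720), whose other probeset gave -0.13. CDK5RAP1, an enzyme of mitochondrial tRNA modification, gave -0.13 (limma adjusted p = 0.837). The median difference over all 86 tested members was -0.02, beside -0.01 over all tested probesets.

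**Figure D3:**
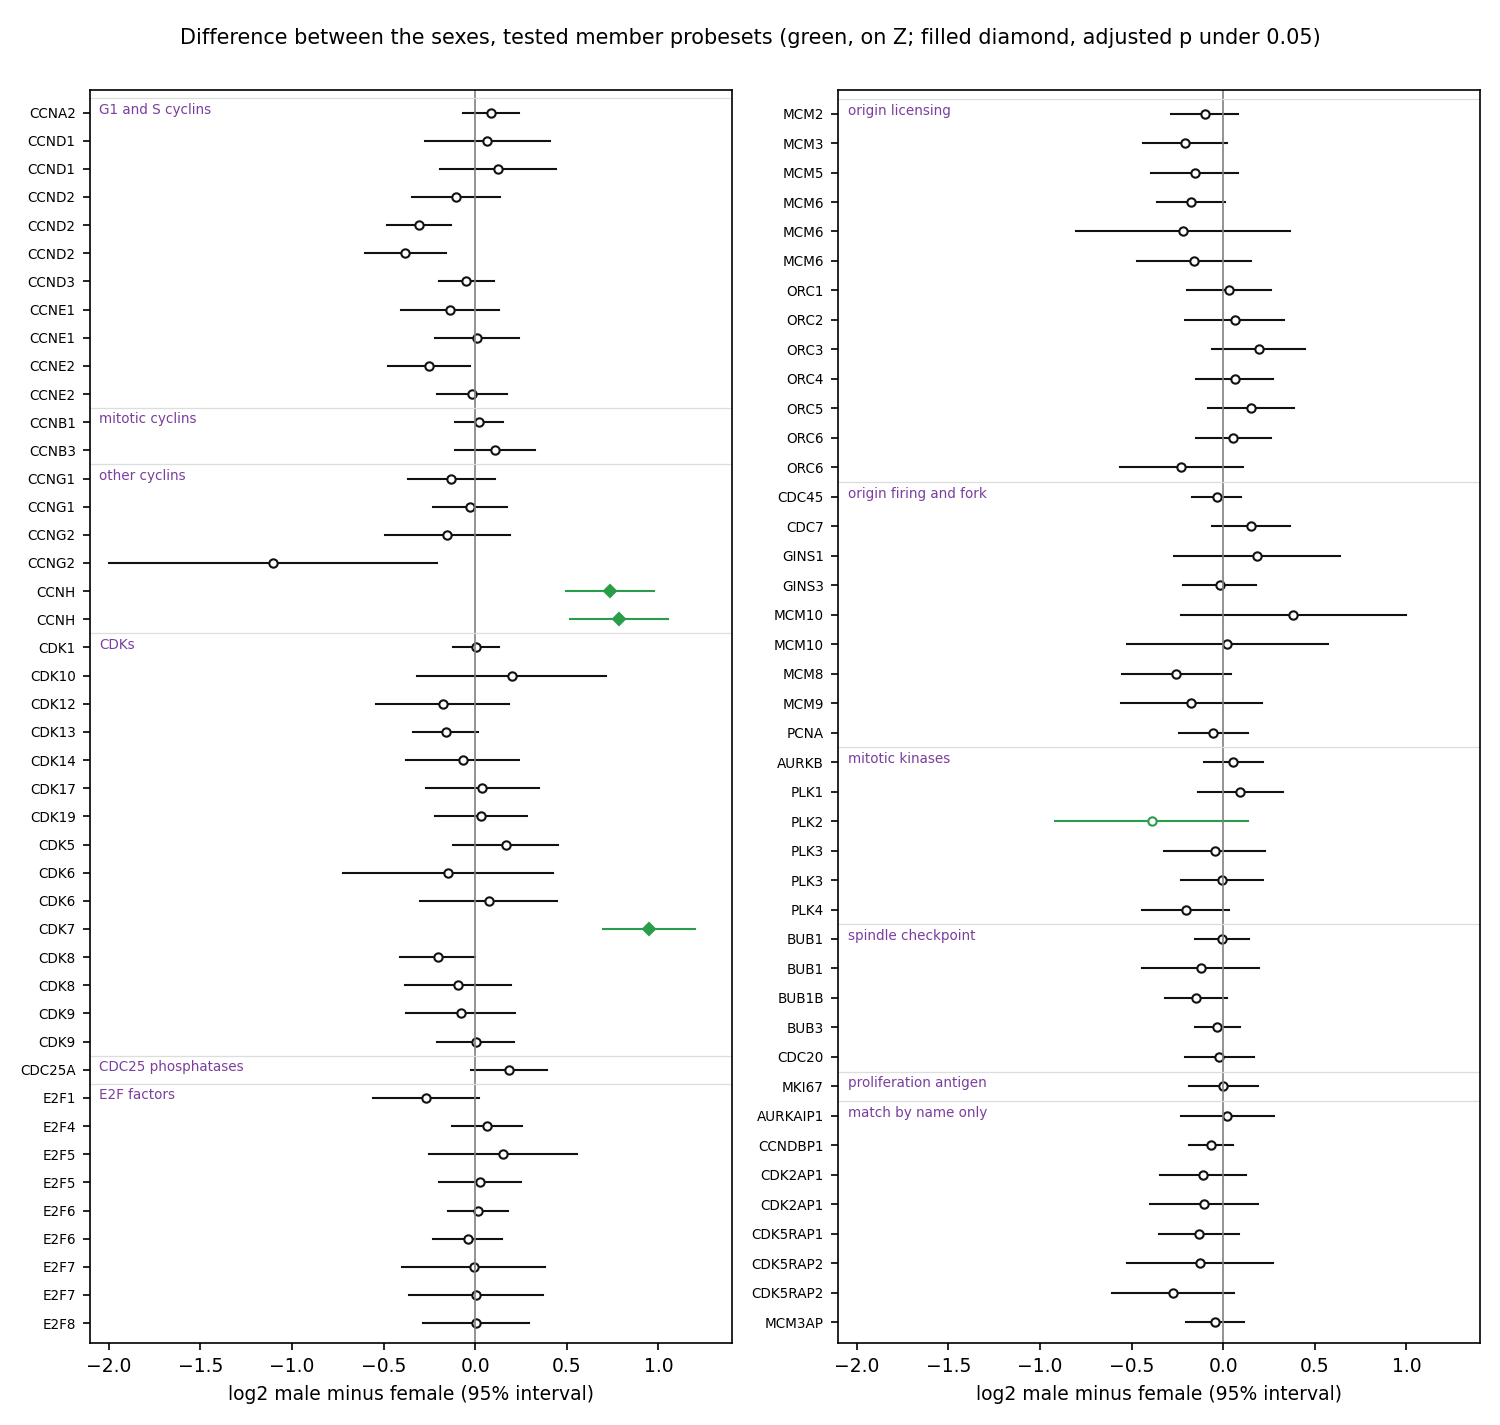
Log2 male minus female difference with its 95% interval for each of the 86 tested member probesets, grouped by role (vertical line, 0; green, Z-linked; filled diamond, adjusted p under 0.05). CDK7 and the 2 CCNH probesets lie to the right of all others, the dimmer CCNG2 probeset lies farthest left at -1.10 with a wide interval, and most intervals cross 0.

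How closely the sexes were matched can be read from the intervals. For 74 of the 82 autosomal members the 95% interval of the difference lay within 1.5-fold either way, and for 46 within 1.3-fold. The counts over all autosomal probesets were 8729 and 5097 of 11024. These shares were not compared at like brightness. Among probesets with a mean signal over 1000 the median residual SD was 0.20 for members and 0.21 for all tested probesets. The intervals that reached beyond 1.5-fold belonged to 1 probeset each of CDK6, CDK10, MCM10 and CDK5RAP2, which were dim, and of MCM6, GINS1, CCND2 and CCNG2. In simulated data of the same size, limma recovered 17, 30, 46 and 47 of 50 probesets changed by 1.3-, 1.5-, 2- and 4-fold, so differences under 1.5-fold were often missed there. The changed probesets were drawn from all tested probesets. Their median residual SD is 0.30 on the log2 scale, beside 0.24 for the tested members, so recovery among members was not measured.

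The members varied little among embryos of 1 sex. The median residual SD was 0.24 on the log2 scale over the 86 tested members and 0.30 over all 14505 tested probesets, and 59 of the 86 lay below the latter. Brightness moved with this: among probesets with a mean signal over 1000 the medians were 0.20 for 52 members and 0.21 for 5538 probesets. The most even members were CCNDBP1, a D cyclin binding protein, BUB3, CDK1, CCNB1 and CDC45, with SDs of 0.07, 0.08, 0.09, 0.09 and 0.10. For CDK1 only 0.921% of probesets over 1000 had a lower SD. The least even were the dimmer CCNG2 probeset (0.98), MCM10 (0.67), MCM6 (0.63, its middle probeset by brightness) and CDK6 (0.62).

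Single embryos stood out across the autosomal members. Female 9 had the lowest signal for 16 of 82 (19.5%, beside 10.7% of all autosomal probesets), and male 8 for 11 (13.4%, beside 9.60%). The median member lay 0.09 below its 18-embryo mean in female 9 and 0.15 below in male 8. Females 1 and 5 were highest for 12 members each (14.6%, beside 5.47% and 5.97%). Female 9 and male 8 are among the 4 embryos lowest on the first component. Female 9 also had the fewest probesets over the detection level (13776), whereas male 8 had 14968. The part of depth or tissue makeup in these values was not tested.

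**Figure D4:**
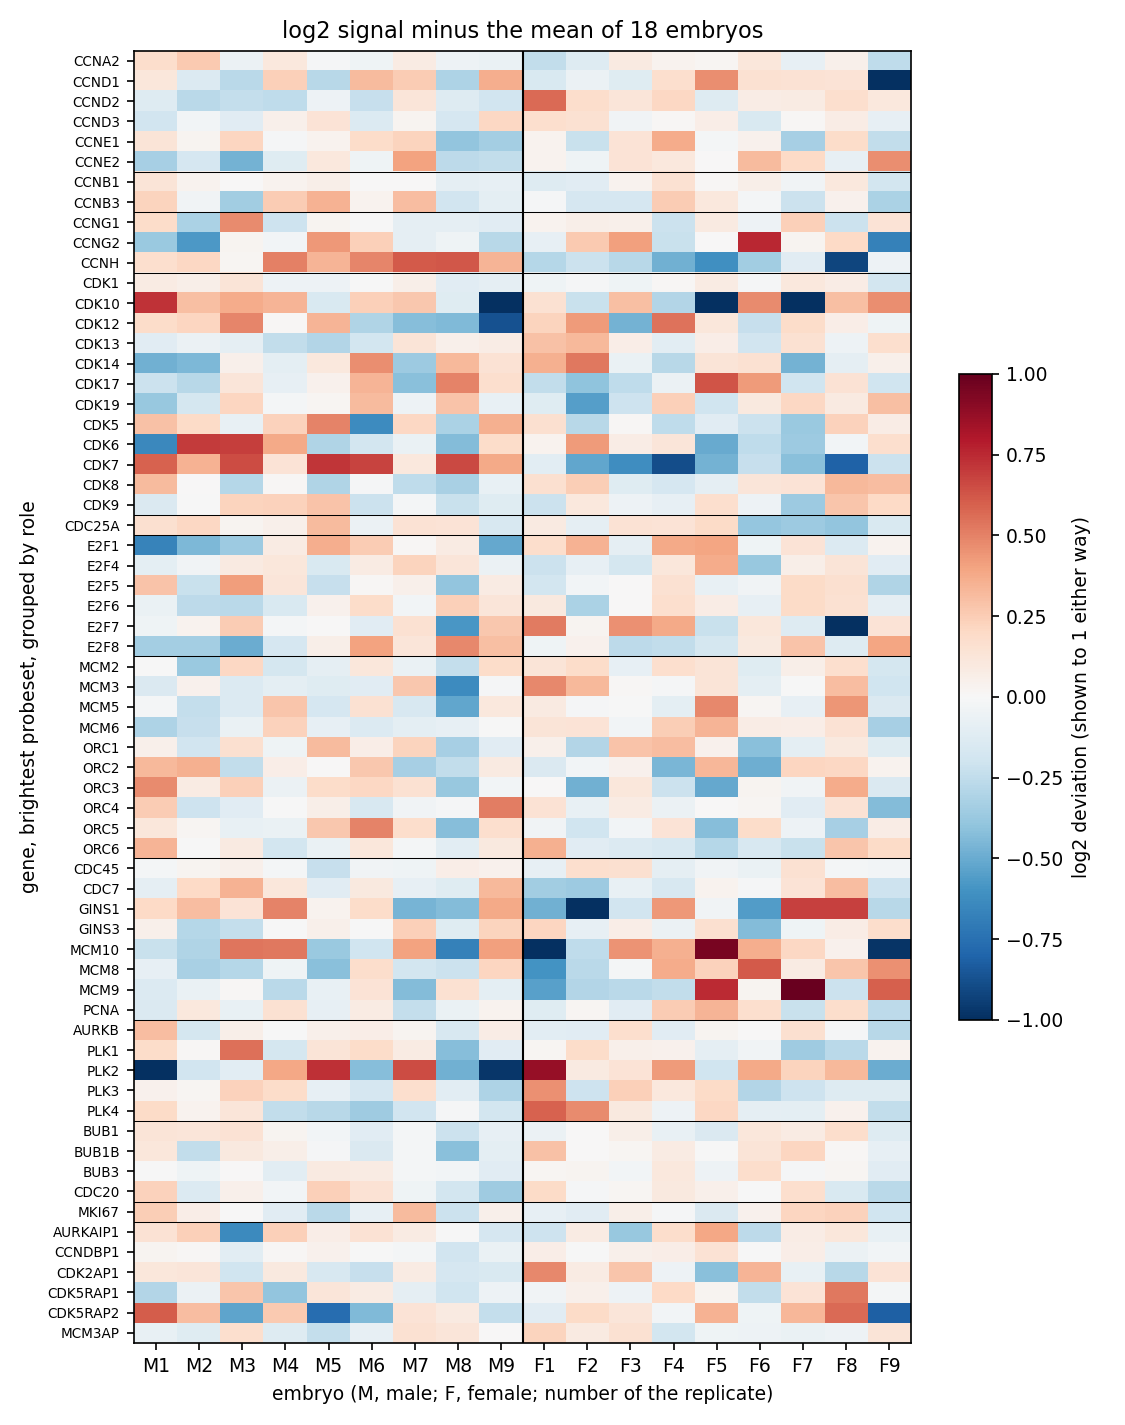
Log2 signal minus the mean of 18 embryos (colour, shown to 1 either way) for the brightest tested probeset of each of 64 member genes, in 9 male (M1 to M9) and 9 female (F1 to F9) embryos, with lines between role groups. CDK7 and CCNH change colour between the sexes, most other rows show no division at the line between males and females, and female 9 is blue in many rows.

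Other genes of the cell cycle were read from 6 further lists of 141 genes, of which 107 had tested probesets. Of 163 tested probesets 6 were male-higher and 1 female-higher, beside 2.48% and 0.283% of all tested probesets. The 6 were again all on Z, where 7 of the 163 lay. RAD1, a subunit of the checkpoint clamp, ran from 1362 to 1998 in males (median 1799) and from 475 to 1039 in females (median 786), a difference of 1.19. CKS2, a small CDK-binding protein, ran from 2561 to 3672 in males (median 3195) and from 1310 to 2077 in females (median 1592), a difference of 0.97. CENPH and CENPK of the inner kinetochore differed by 0.89 and 0.76, and SMC2 of condensin by 0.62. SKP2, the F-box protein that marks the CDK inhibitor p27 for destruction in mammals, had a smaller difference of 0.35 (2477 ± 243 against 1937 ± 138, limma adjusted p = 0.0050). In RAD1, CKS2, CENPH and SMC2 every male was above every female, as in CDK7. Over all tested Z-linked probesets 28.9% were separated in this way and 56.9% were called. RAD17, the loader of the checkpoint clamp, was the 1 Z-linked probeset of these lists not called (0.31, SE 0.08, limma adjusted p = 0.0562).

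By list, the counts were 2 male-higher of 22 tested probesets for CDK inhibitors, CDK-binding subunits and pocket proteins, 1 of 12 for checkpoint kinases and partners, 2 of 46 for spindle, kinetochore and cytokinesis genes, and 1 male-higher and 1 female-higher of 34 for the anaphase-promoting complex, cohesin and condensin. The shares over all tested probesets were 2.48% male-higher and 0.283% female-higher. Every male-higher call of these lists was Z-linked. The 43 tested probesets of replication forks and nucleotide supply held no call by limma, with a median difference of 0.00 and 1 unadjusted p under 0.05 (beside 5.15% of autosomal probesets). The female-higher call was STAG1 on chromosome 9, a cohesin subunit. It ran from 343 to 627 in males (median 508) and from 526 to 1076 in females (median 723), with a difference of -0.59 (SE 0.15, limma adjusted p = 0.0366). Its other 2 tested probesets, both close to the detection level, gave -0.30 and -0.31 (limma adjusted p = 0.570 and 0.867). These lists were put together with earlier results of these data known, so their counts are a description.

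**Figure D5:**
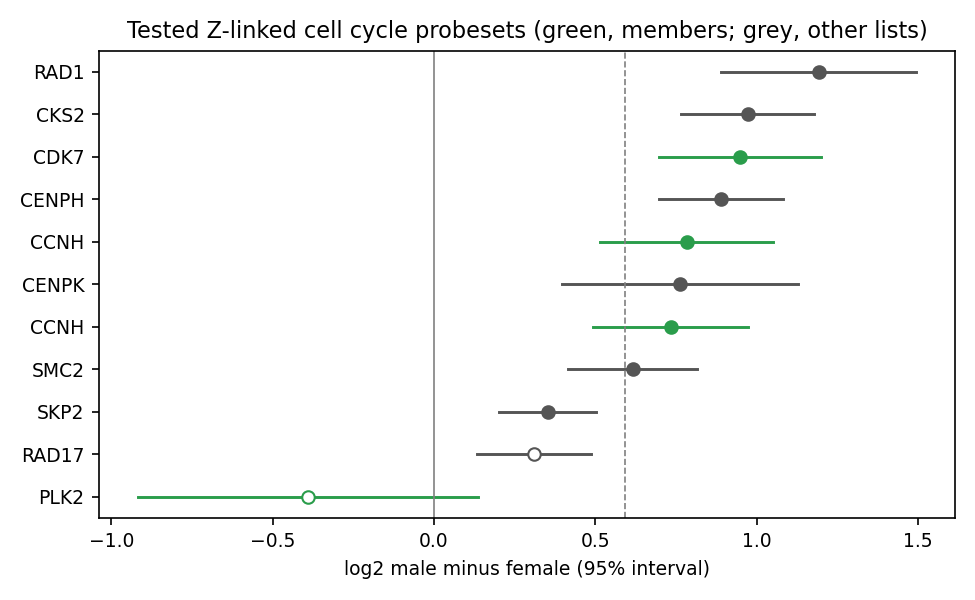
Log2 male minus female difference with its 95% interval for the 11 tested Z-linked probesets of cell cycle genes, members in green and genes of the other lists in grey (filled, adjusted p under 0.05; solid line, 0; dashed line, the Z-linked median of 0.59). The values run from -0.39 for PLK2 to 1.19 for RAD1, and 9 of the 11 are called male-higher.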

How the data were processed

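The authors' MAS5 intensity values were used as deposited, per the labels made with MAS5 and affy. MAS5 subtracts local background, merges matched and mismatched probes into 1 value for a probeset and scales the arrays, here to a trimmed mean of 500, so a change shared by most genes would be scaled out. Of 38535 probesets, 96 controls were left out. The platform annotation gives 27178 probesets 1 gene, 177 several and 11180 none, and chromosomes come from GRCg7b (26863 of 27178 found, all 123 members). The arrays' own build is not given in the sources used here, so no coordinates or sequences are printed.

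Signals were turned to log2 (floor 1). Present calls, which the study's filter used, were not analysed here, and a signal of 130 in at least 9 embryos stood in for them. Sex differences were fitted with limma 3.58.1 (R 4.3.3), 2-sided, with sex as the only term, and a SAM-type test with 100 relabellings was an alternative because SAM was the study's test. limma made 5 false calls and the SAM-type test 7 in simulated data. Within-embryo contrasts of the brightest probesets used all 48620 splits of the embryos, 2-sided, in Python 3.11.15 with numpy 2.4.6 and pandas 2.3.3. Alternatives were other filters, quantile normalization, log2(signal + 32), signals under 130 set to 130, array weights, 1 probeset for each gene, a block for the replicate number and leaving out each embryo. Leaving out 4 embryos together was added after seeing the data.

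Named members were those called, those on Z, the 2 largest differences and the largest SD of each role, genes whose probesets disagreed by over 0.5, and familiar proliferation genes (CCND1, CDK1, PCNA, MKI67, MCM2, E2F1, PLK1, BUB1). From each other list up to 4 called genes were named. Further genes were named after their values were seen. The members and lists were chosen with earlier results of these data known. The number of arrays limits the precision. Probes that share sequence with another gene were not examined.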

Additional observations from a re-analysis of the deposited data

Results flagged for a closer look

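Single embryos that lay far from the rest of their sex were looked for in 80 groups of 9 embryos, and 4 were found, where chance flags about 5% of groups. The measure was the gap on the log2 scale between an extreme embryo and its nearest neighbour, divided by the range of the group, against a critical value of 0.493. Female 9 had the lowest CCND1 signal of the females (3163, next 5859, gap 0.592 of the range), and the lowest signal of the brighter CDK5RAP2 probeset (123, next 200.1, gap 0.508). Female 1 had the highest CCND2 signal of the females with the brighter probeset (5600, next 4361, gap 0.519). Male 3 had the lowest MNAT1 signal of the males (379, next 541, gap 0.512). Leaving out each embryo in turn kept the log2 ratio of CDK7 to MNAT1 between 0.86 and 1.05 higher in males and that of CCNH to MNAT1 between 0.63 and 0.82 higher.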

How the results depend on the processing

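The 3 male-higher members were called in every setting (2 with 1 probeset for each gene, which leaves 1 for CCNH), and their differences kept their sign. The count of female-higher members was 0, and became 2 with at least 10 embryos over a signal of 260 and 1 with 1 probeset for each gene. Leaving out each embryo gave 0 to 2. All of these calls were CCND2. The female-higher count over all tested probesets (41) was 17 with the stricter filter and 27 with the SAM-type test. With 9 females, a filter of at least 10 embryos drops any probeset bright in females alone, such as the brighter HINTW probeset. The fall to 17 is thus partly set by the filter. Leaving out each embryo gave 34 to 47 female-higher probesets, and the male-higher count (360) was then 334 to 359. The difference of CDK7 minus CCNH ran from 0.15 to 0.29 leaving out each embryo. Its unadjusted exact permutation p was under 0.05 only without male 7. Without the 4 embryos that stood apart, members that were not called and moved by over 1.5 times included those at -0.46 (E2F1), -0.39 (brighter CCNG2), -0.37 (dimmer ORC6), -0.34 (MCM6, middle probeset by brightness) and 0.21 (dimmer MCM10), with no new call. In the same setting the dimmer CCNG2 probeset moved from -1.10 to -1.60 (limma adjusted p = 0.0944). The cause of these changes was not tested. Male and female embryos of the same number did not deviate together (correlations -0.24 to 0.21, 4 of 9 over 0.1, and 2 of 9 embryos matched their own number best). A replicate block gave 3 male-higher and 0 female-higher members, and 323 and 35 over all probesets. Signal near the detection level limits PLK2, CDK6, CDK10, E2F5 and MCM10 most.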
